A study of Sus scrofa with 8 samples.

Results

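The interferon-linked members of the poly(ADP-ribose) polymerase (PARP) family and the ubiquitin ligase DTX3L were examined in porcine induced pluripotent stem cells that overexpressed the transcription factor IRF-1. The 8 genes were chosen by symbol as PARP9, PARP10, PARP11, PARP12, PARP14 and DTX3L, together with PARP1 and PARP2 as family members that are not known as interferon-induced genes. Of these, 7 were found by symbol among the 24358 gene identifiers of the count table and all 7 passed the filter on low counts, whereas PARP10 had no identifier with its symbol.

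PARP enzymes take ADP-ribose from NAD and attach it to proteins or nucleic acids, and most of the interferon-linked members add single units whereas PARP1 and PARP2 build chains at DNA breaks. Several genes of the family, with DTX3L, are induced by interferons through STAT and IRF transcription factors and take part in antiviral defence. Pluripotent stem cells are known for a weak interferon response.

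The study asked how IRF-1 changes gene expression in DOX-hLIF-2i piPSCs, a name shared by several lines made from pig embryonic fibroblasts with doxycycline-inducible OCT4, SOX2, KLF4 and cMYC, and kept on feeder cells with doxycycline, LIF and the inhibitors CHIR99021 and PD0325901. The IRF-1 overexpressing group (replicates 1 and 3) received the piggyBac vector PB-CAG-IRF1-Flag, in which the CAG promoter drives a Flag-tagged IRF-1, and the control group (replicates 6 and 8) received PB-CAG-Flag. Both groups were selected with puromycin, and feeder cells were depleted by plating before RNA extraction. The genotype label reads overexpression for all 4 libraries, so the assignment of replicates 6 and 8 to the control group was taken from the study. Which of the lines each library came from is not given in the sources used here. Nothing says that the libraries of a group came from separate cultures, and p-values therefore measure only the spread between these samples, which may be technical.

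The total of counted reads was 24923319 and 20858333 in overexpressing replicates 1 and 3, and 15925429 and 17097669 in control replicates 6 and 8. IRF1 was counted 8206 and 5485 times in overexpressing replicates 1 and 3, and 55 and 56 times in control replicates 6 and 8, so the level of the transgene's gene separated the groups as assigned. The pluripotent cell markers LIN28A and CDH1 were counted in all 4 libraries, whereas NANOG had 8, 11, 5 and 9 counts in replicates 1, 3, 6 and 8. LIN28A and CDH1 were lower in the overexpressing cells, at log2 fold changes of −1.34 and −2.25. By the rule given below, 3 of 5 tested pluripotent cell markers were called lower and 0 higher.

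Of the 7 members measured, PARP14, PARP12, PARP9 and DTX3L were called higher in the overexpressing cells, and PARP11, PARP1 and PARP2 were not called. A gene was called when the quasi-likelihood test of edgeR, with p adjusted over 13250 genes by the Benjamini-Hochberg method, gave an adjusted p under 0.05 and the log2 fold change was at least 1 in size. By this rule 4 members were higher and 0 were lower, whereas 8.61% of all tested genes were called higher and 10.6% were called lower. PARP14 (2 and 0 counts in control replicates 6 and 8) and PARP12 (14 and 6) passed the low-count filter only through the overexpressing libraries. With such control counts these 2 genes could hardly have been called lower. The same 4 to 0 split was counted at an unadjusted p under 0.05 in edgeR, and among the calls of DESeq2 and of limma-voom. Over all genes DESeq2 called 1102 higher and 1320 lower, and limma-voom called 1113 higher and 1392 lower. In edgeR 3896 of the 13250 tested genes had an adjusted p under 0.05 at any fold, and at least as many pass the unadjusted threshold. The count was 3 without overexpressing replicate 1 and also with glmTreat, which tests against the minimum fold, because DTX3L was then not called. These are bulk libraries, in which fewer cells of a type and less RNA per cell cannot be told apart. With 2 against 2 libraries the smallest two-sided p of an exact permutation test is 0.333, and single values were compared by the fit across all genes.

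PARP14, PARP9 and DTX3L are neighbours on chromosome 13 of the pig genome (Sscrofa11.1). PARP14 (ENSSSCG00000011874, minus strand, 137809503 to 137865762) encodes a large macrodomain protein that transfers single ADP-ribose units and is known as a cofactor of STAT6. It had 1370 counts in overexpressing replicate 1 and 774 in replicate 3, against 2 counts in control replicate 6 and 0 in control replicate 8. The gene was thus close to undetected in the control cells, where 3 counts correspond to 0.192 and 0.171 CPM (counts scaled to a library of 1000000 counts), and the groups were far apart. In CPM it was 46.2 ± 12.7 (SD, n = 2) in the overexpressing cells and 0.064 ± 0.0905 (SD, n = 2) in the control cells. The rates of the pooled counts differed by a ratio of 778, with an exact 95% interval from 215 to 6428 that covers counting error only. The fitted log2 fold change was 9.43 with a standard error (SE) of 0.53 (edgeR quasi-likelihood test, adjusted p = 0.000134), the 9th highest of all tested genes, but its size depends on the prior count since so few control reads were counted. Leaving out control replicate 6 gave 12.93, and leaving out control replicate 8 gave 8.44.

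PARP9 (ENSSSCG00000027709, plus strand, 137961043 to 138001674) encodes a macrodomain protein that works in a complex with DTX3L. Its counts were 431 and 277 in overexpressing replicates 1 and 3, and 26 and 12 in control replicates 6 and 8. Both overexpressing libraries were therefore above both controls, and the control libraries differed from each other by a factor of 2.43 after scaling. The level was 15.3 ± 2.85 CPM (SD, n = 2) against 1.17 ± 0.691 CPM (SD, n = 2), a 13.1-fold difference of the means. The log2 fold change was 3.72 (SE 0.42, 95% interval 2.74 to 4.70, edgeR quasi-likelihood adjusted p = 0.000983), with 4.47 without control replicate 6 and 3.21 without control replicate 8.

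DTX3L (ENSSSCG00000011876, minus strand, 137952520 to 137961372) encodes the E3 ubiquitin ligase partner of PARP9. It was counted 109 and 54 times in overexpressing replicates 1 and 3, and 12 and 10 times in control replicates 6 and 8. The groups did not overlap, but the counts were the lowest of the called members in the overexpressing cells, and replicate 1 was 1.69 times replicate 3 in CPM. The mean was 3.49 ± 1.27 CPM (SD, n = 2) against 0.67 ± 0.139 CPM (SD, n = 2), which is 5.21-fold. The log2 fold change was 2.38 (SE 0.48, 95% interval 1.26 to 3.50, edgeR quasi-likelihood adjusted p = 0.0091). Without overexpressing replicate 1 it was 1.96 and missed the threshold (edgeR adjusted p = 0.0888), as it did with glmTreat (adjusted p = 0.0516), and over all 14 alternatives the adjusted p lay between 9.3e-05 and 0.0888.

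PARP9 and DTX3L lie head to head on opposite strands. Their gene spans overlap by 330 bases and they share 218 exon bases, which is 7.96% of the exon bases of DTX3L and 2.86% of those of PARP9. The strand setting of the counting is not given in the sources used here, and reads on the shared bases cannot be assigned to either gene with certainty. RefSeq's DTX3L extends 2254 bases beyond the 3′ end in the count table, and reads on that stretch may not have been counted. Per length of exon, as CPM divided by kilobases of exon (FPKM), the ratio of PARP9 to DTX3L was 1.42 and 1.84 in overexpressing replicates 1 and 3, and 0.777 and 0.43 in control replicates 6 and 8. PARP9 was thus above DTX3L in both overexpressing libraries and below it in both controls, and the difference of these ratios was not tested.

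**Figure D1:**
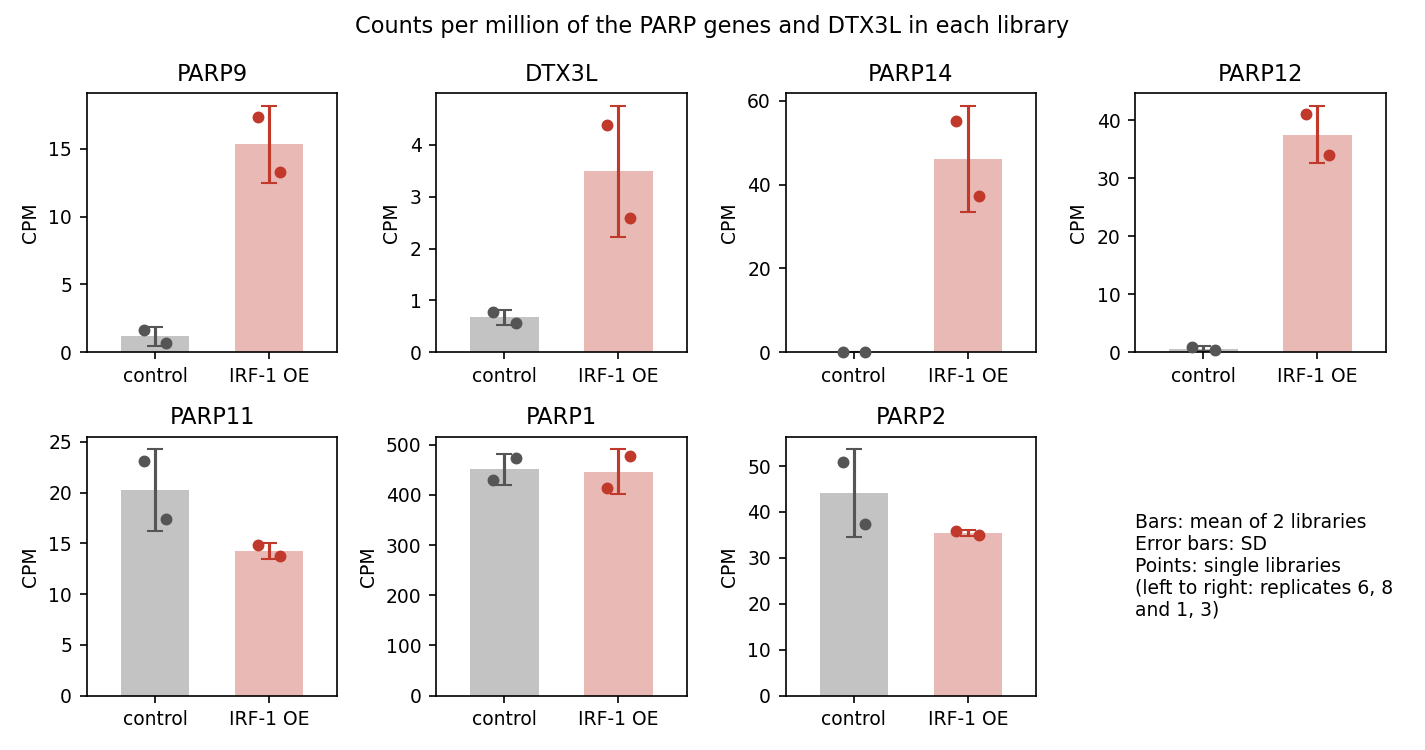
Scaled counts (CPM, vertical axes, each starting at 0) of the 7 measured genes in control and IRF-1 overexpressing (IRF-1 OE) cells, with bars for the mean of 2 libraries, error bars for the SD and points for single libraries. PARP14 stood at 46.2 against 0.064 CPM, whereas PARP1 stood at 446 against 451 CPM with overlapping points.

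The span from PARP14 to PARP9 covers 192172 bases. Between PARP14 and DTX3L lie 86757 bases with 2 identifiers that have no symbol, of which ENSSSCG00000011875 had 2, 1, 0 and 0 counts in replicates 1, 3, 6 and 8 and the other had 0 in all libraries. Within 200 kb on either side of the 3 genes, 6 other genes were tested and 0 were called, with 1 higher and 1 lower at an unadjusted p under 0.05 in edgeR. The 5 with a symbol were not called by DESeq2 or limma-voom either. FAM162A was at a log2 fold change of 0.58, which is under the minimum fold (edgeR adjusted p = 0.0444), and SLC49A4, on the far side of PARP14, was at −0.55 (edgeR adjusted p = 0.0765). HSPBAP1, next to PARP14, was at −0.21 and KPNA1, next to PARP9, was at 0.20, with MIX23 at 0.05. The 3 called genes of this window were the listed members, with tested genes that were not called on both sides. Of all tested genes 19.3% were called in either direction, so 0 of 6 does not set these neighbours apart. Whether the change is limited to the 3 members was not tested.

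**Figure D2:**
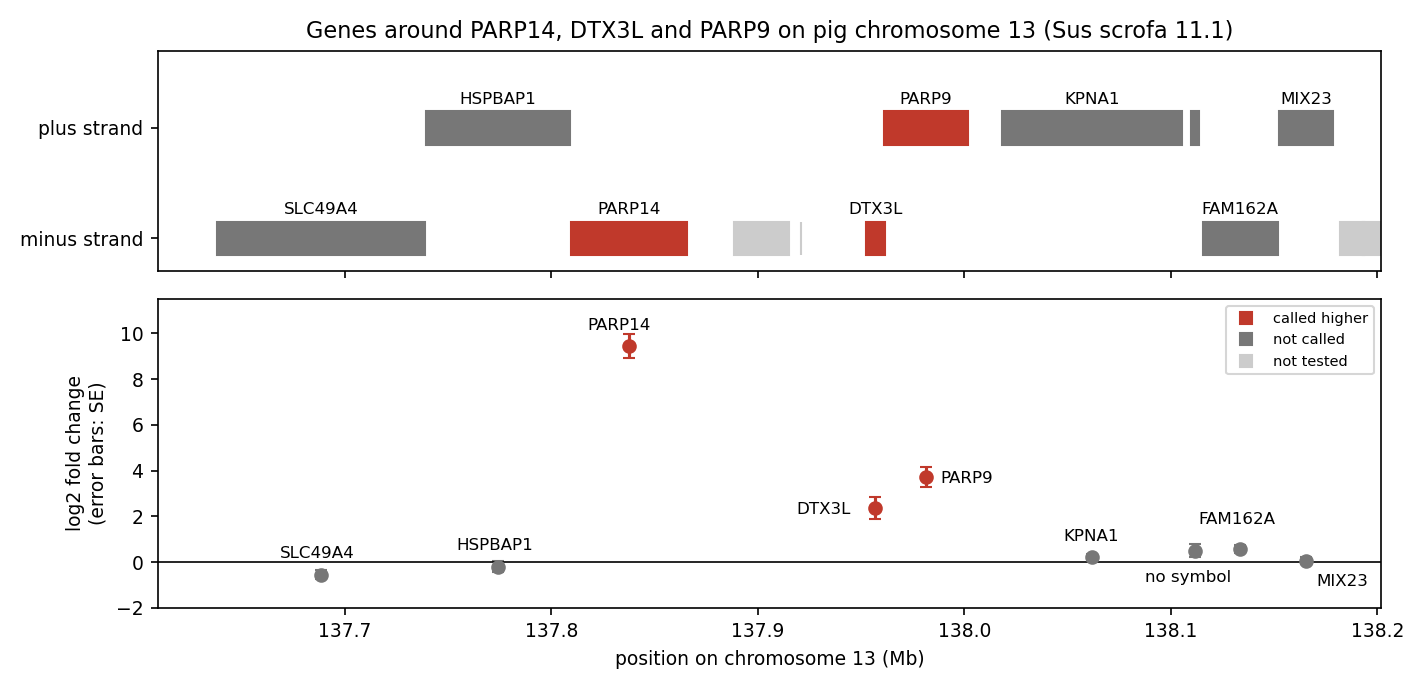
Gene positions on chromosome 13 in megabases (horizontal axis) by strand (upper panel), and the fitted log2 fold change of each tested gene, IRF-1 overexpressing minus control, with the SE as error bar (lower panel, points at the middle of each gene). PARP14 (9.43), PARP9 (3.72) and DTX3L (2.38) stood above their tested neighbours, which lay between −0.55 and 0.58.

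PARP12 (ENSSSCG00000016502) lies on the plus strand of chromosome 18, from 9674944 to 9716743. It encodes a mono-ADP-ribosyltransferase with zinc fingers that bind RNA. The table gives 1020 and 708 counts in overexpressing replicates 1 and 3, and 14 and 6 counts in control replicates 6 and 8. The control libraries held a low but countable level, and every overexpressing value was above every control value. The means were 37.5 ± 4.96 CPM (SD, n = 2) and 0.619 ± 0.391 CPM (SD, n = 2), a 60.6-fold difference. The log2 fold change was 5.94 (SE 0.37, 95% interval 5.08 to 6.79, edgeR quasi-likelihood adjusted p = 0.000163), with 6.75 without control replicate 6 and 5.39 without control replicate 8.

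PARP11 (ENSSSCG00000000728) lies on the plus strand of chromosome 5, from 66443483 to 66483643, and encodes a mono-ADP-ribosyltransferase that is found at the nuclear envelope. It was the interferon-linked member that was measured and not called. Its counts were 369 and 286 in overexpressing replicates 1 and 3, and 361 and 304 in control replicates 6 and 8. After scaling, both overexpressing libraries were below both controls, at 14.3 ± 0.779 CPM (SD, n = 2) against 20.2 ± 4.04 CPM (SD, n = 2). The log2 fold change was −0.50 (SE 0.22, edgeR quasi-likelihood adjusted p = 0.129), and its 95% interval from −1.01 to 0.01 lies below the values of the 4 called members. Without control replicate 8 the value was −0.68 (edgeR adjusted p = 0.0491), still under the minimum fold, and over the alternatives the adjusted p lay between 0.0491 and 1.

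PARP1 (ENSSSCG00000023660, chromosome 10, minus strand, 14203645 to 14240972) encodes the main DNA break sensor of the family. It had 10296 and 9939 counts in overexpressing replicates 1 and 3, and 6714 and 8282 in control replicates 6 and 8. Scaled to library size the groups overlapped, at 446 ± 44.8 CPM (SD, n = 2) and 451 ± 31.0 CPM (SD, n = 2). The log2 fold change was −0.02 (SE 0.14, edgeR quasi-likelihood adjusted p = 0.938), with a 95% interval from −0.34 to 0.30. Its sign turned without overexpressing replicate 1 (0.095) and without control replicate 8 (0.063).

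PARP2 (ENSSSCG00000002143, chromosome 7, minus strand, 78531709 to 78551424) encodes the second DNA break responsive polymerase. The counts were 893 and 726 in overexpressing replicates 1 and 3, and 795 and 653 in control replicates 6 and 8. In CPM the overexpressing libraries lay at 35.9 and 34.9, below the controls at 50.8 and 37.3, so the groups were next to each other without overlap. The log2 fold change was −0.32 (SE 0.19, edgeR quasi-likelihood adjusted p = 0.247), with a 95% interval from −0.75 to 0.12. Leaving out control replicate 8 gave −0.51 (edgeR adjusted p = 0.0442), within a range of adjusted p from 0.0442 to 1 over the alternatives.

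For PARP10, a mono-ADP-ribosyltransferase with an RNA recognition motif, no value can be given. RefSeq places the gene on chromosome 4 of Sscrofa11.1, from 688511 to 695808. The identifier of the count table with exons in this span is PLEC (ENSSSCG00000039094), the gene of the cytoskeletal linker plectin, of whose 18308 exon bases 2593 (14.2%) lie in the RefSeq span of PARP10. PLEC had 7092 and 8166 counts in overexpressing replicates 1 and 3 against 19350 and 18139 in control replicates 6 and 8, and was called lower at a log2 fold change of −1.75 (SE 0.18, edgeR quasi-likelihood adjusted p = 0.000788). This count is for PLEC and its exons as a whole, and says nothing of PARP10.

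Levels were compared between the genes in FPKM. In the overexpressing cells the order was PARP1 (148 ± 14.9), PARP12 (8.31 ± 1.10), PARP14 (7.39 ± 2.03), PARP2 (6.67 ± 0.139), PARP11 (3.11 ± 0.170), PARP9 (2.01 ± 0.373) and DTX3L (1.28 ± 0.462), each as mean FPKM ± SD with n = 2. The libraries of PARP12 and PARP14 overlapped in this order, and so did those of PARP14 and PARP2, whereas the other neighbours were apart. In the control cells the order was PARP1 (150 ± 10.3), PARP2 (8.31 ± 1.80), PARP11 (4.40 ± 0.880), DTX3L (0.244 ± 0.0506), PARP9 (0.154 ± 0.0905), PARP12 (0.137 ± 0.0865) and PARP14 (0.0102 ± 0.0145), again as mean FPKM ± SD with n = 2. There DTX3L overlapped PARP9 and PARP9 overlapped PARP12. PARP12 and PARP14, the lowest of the 7 in the control cells, thus stood next after PARP1 in the overexpressing cells, at a level not separated from that of PARP2 for PARP14.

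The summed FPKM of the 4 called genes was 21.8 and 16.2 in overexpressing replicates 1 and 3, and 0.717 and 0.374 in control replicates 6 and 8. This sum made up 12.9% and 8.77% of the FPKM of all 7 genes in overexpressing replicates 1 and 3, and 0.454% and 0.222% of it in control replicates 6 and 8. PARP1 held 81.2% and 86.0% of the summed FPKM in overexpressing replicates 1 and 3, and 90.3% and 93.4% in control replicates 6 and 8. PARP1 was therefore the most abundant of the 7 transcripts per length in each library.

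Overexpressing replicate 1 was above replicate 3 for all 4 called genes, by a factor in CPM of 1.69 for DTX3L, 1.48 for PARP14, 1.3 for PARP9 and 1.21 for PARP12, and the factor for IRF1 was 1.25. In the controls replicate 6 was above replicate 8 by a factor of 2.61 for PARP12, 2.43 for PARP9 and 1.34 for DTX3L, the last on 12 against 10 counts, whereas the counts of PARP14 were too low to order the controls. Groups of 2 allow no test of these orders.

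Of 10635 genes with a symbol and a mean of at least 1 CPM, those whose pattern over the 4 libraries was most like that of PARP9 were PSMB9, TRHDE and GALNT15, at Euclidean distances of 0.073, 0.244 and 0.247 in centred log2 CPM. PSMB9, a subunit of the immunoproteasome, had 1090 and 743 counts in overexpressing replicates 1 and 3, and 71 and 33 in control replicates 6 and 8. Its log2 fold change was 3.64 (SE 0.37, edgeR quasi-likelihood adjusted p = 0.000686), with 4.39 without control replicate 6, and 24.6% of its exon bases are shared with TAP1 on the opposite strand. For PARP14 the nearest were TLX3, FEZF1 and RXRG, at distances of 0.289, 0.875 and 0.938. TLX3, a homeobox transcription factor gene, had 1077, 750, 2 and 0 counts in replicates 1, 3, 6 and 8. These genes were chosen for their likeness over the same 4 libraries, so the shared pattern is a description of the choice.

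The nearest tested genes on each side of PARP11, PARP12, PARP1 and PARP2 were read in the same way. Of these 8 neighbours, 2 were called higher and the other 6 were not called, beside 8.61% of all tested genes called higher. PRMT8, which lies 181620 bases from PARP11, had 261 and 185 counts in overexpressing replicates 1 and 3 against 8 and 3 in the controls (log2 fold change 4.83, SE 0.49, edgeR adjusted p = 0.000672), and it was at 5.77 without control replicate 6 and 4.24 without control replicate 8. STUM, 54250 bases from PARP1, was at 2.05 (SE 0.52, edgeR adjusted p = 0.0224), and without overexpressing replicate 1 at 1.16 (edgeR adjusted p = 0.194), and was not called by glmTreat (adjusted p = 0.132). The tested neighbours of PARP12, the called gene of this group, were not called. HIPK2, one of them, passed the p threshold (edgeR adjusted p = 0.013) but at 0.78 was under the minimum fold.

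The rest of the PARP family was described from a list of 10 genes, of which 7 were tested. Of these 0 were called higher and 1 lower, and the median log2 fold change was −0.48 (−0.58 to −0.37 when each library was left out) beside 0.00 for all tested genes. At an unadjusted p under 0.05 in edgeR 1 was higher and 4 were lower, and both DESeq2 and limma-voom called 0 higher and 1 lower. For this list and those below, 8.61% of all tested genes were called higher and 10.6% lower in edgeR. At least 3896 of the 13250 tested genes pass the unadjusted threshold, since so many had an adjusted p under 0.05 at any fold. Unadjusted counts of a list are therefore no trait of that list by themselves. The gene called lower was TIPARP, a mono-ADP-ribosyltransferase induced by the aryl hydrocarbon receptor, with 1199 and 1217 counts in overexpressing replicates 1 and 3 and 2100 and 2298 in control replicates 6 and 8 (log2 fold change −1.32, SE 0.15, edgeR adjusted p = 0.00102), and glmTreat did not call it (adjusted p = 0.0847). ZC3HAV1, an antiviral protein of the family that binds viral RNA and is also known as interferon-induced, was at 0.09 (SE 0.15, edgeR adjusted p = 0.697) and at −0.015 without control replicate 6. The tankyrases TNKS and TNKS2, which build ADP-ribose chains on proteins such as axin, were at −0.29 and −0.48, and TNKS2 passed the p threshold (edgeR adjusted p = 0.0433) but not the minimum fold. PARP8 (−0.83, edgeR adjusted p = 0.0339) was also under that minimum, and PARP3 and PARP16 were at −0.77 and 0.50. Over the whole family with the members, 17 PARP genes were listed and 13 tested, of which 3 were called higher, 1 lower and 9 not called, with a median log2 fold change of −0.29.

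**Figure D3:**
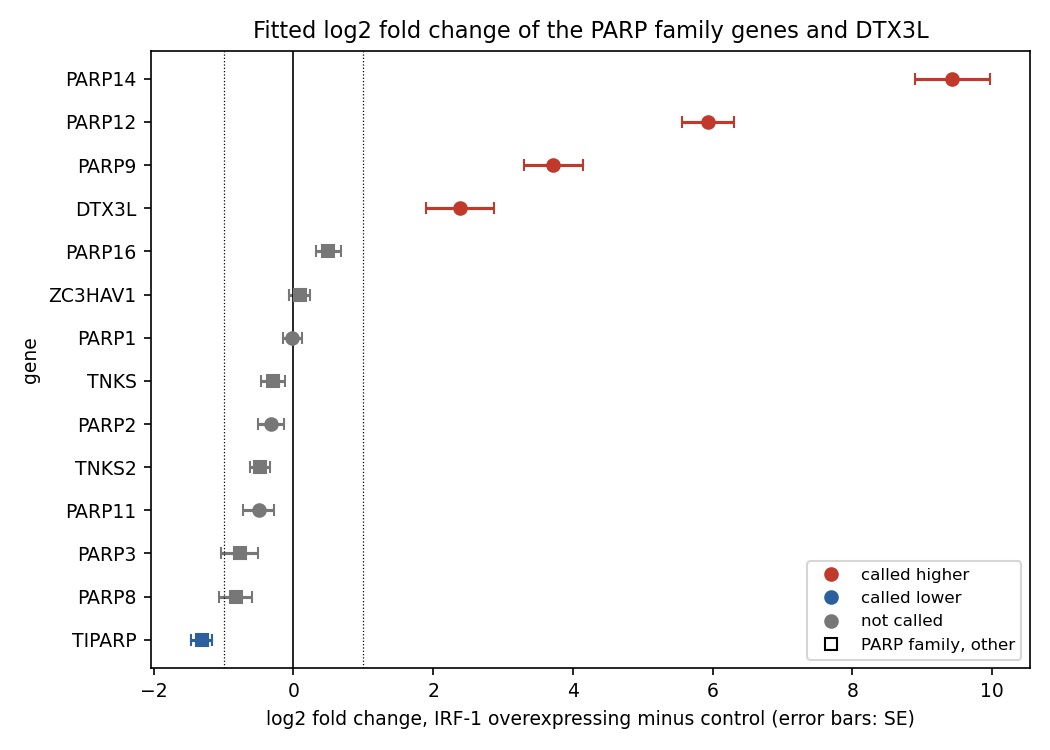
Fitted log2 fold change (horizontal axis, IRF-1 overexpressing minus control, error bars for the SE) of the tested PARP family genes and DTX3L, with circles for the listed members and squares for the other family genes, and dotted lines at the minimum fold. PARP14, PARP12, PARP9 and DTX3L lay between 2.38 and 9.43, and the other genes lay between −1.32 and 0.50.

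Among the other Deltex ligases, relatives of DTX3L, 3 of 4 were tested, of which 0 were called higher and 1 lower, with a median of −0.60 (−0.76 to −0.41 when each library was left out). DTX3 had 147 and 333 counts in overexpressing replicates 1 and 3, and 512 and 587 in control replicates 6 and 8. It was called lower at −1.60 (SE 0.40, edgeR adjusted p = 0.0209), with overexpressing replicates that differed from each other more than the controls did. Its value was −1.04 without overexpressing replicate 1 and −2.48 without replicate 3, and it was not called by glmTreat (adjusted p = 0.206). Of its exon bases 5.29% are shared with PIP4K2C on the same strand. DTX4 was at 0.68 (edgeR adjusted p = 0.00816), under the minimum fold, and DTX2 was at −0.60. At an unadjusted p under 0.05 in edgeR 1 of the 3 was higher and 2 were lower, and DESeq2 and limma-voom each called 0 higher and 1 lower.

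Enzymes that remove ADP-ribose were represented by 9 listed genes, of which 7 were tested, 1 was called higher and 0 lower, with a median of 0.10 (0.093 to 0.37 when each library was left out). The called gene was MACROD2, a macrodomain hydrolase, at 1.5 (SE 0.44, edgeR adjusted p = 0.0361). The call was lost without overexpressing replicate 1 (1.77, edgeR adjusted p = 0.0803), without replicate 3 (1.21, edgeR adjusted p = 0.228), without control replicate 8 (1.32, edgeR adjusted p = 0.101), in DESeq2 (1.52, adjusted p = 0.064) and with glmTreat (adjusted p = 0.332). PARG, which cuts ADP-ribose chains, was at −0.21, and ADPRS, which removes ADP-ribose from serine, was at 0.65 (edgeR adjusted p = 0.0168) and under the minimum fold, with 30.6% of its exon bases shared with COL8A2 on the opposite strand. At an unadjusted p under 0.05 in edgeR, 2 were higher and 1 was lower, and limma-voom called 1 higher and 0 lower.

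Of 10 partners of PARP1 and readers of ADP-ribose, all tested, 0 were called in either direction by edgeR, DESeq2 or limma-voom, and the median was −0.01 (−0.068 to 0.085 when each library was left out). In edgeR 19.3% of all tested genes were called in either direction. At an unadjusted p under 0.05 in edgeR 1 was higher and 1 lower. HPF1, the cofactor that directs PARP1 and PARP2 to serine, was at 0.04 (SE 0.15), with 28.9% of its exon bases shared with CLCN3 on the opposite strand. XRCC1, a repair scaffold drawn to ADP-ribose chains, was at 0.25, and the DNA ligase LIG3 was at 0.66 (edgeR adjusted p = 0.0118), under the minimum fold.

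Interferon genes were read beside the members as well. Of 10 listed ligands 4 had an identifier and 0 were tested, since IFNB1 had 0 counts in all libraries and IFNG, IFNE and IFNK had no more than 2 counts in any library. The summed CPM of these 4 ligands was 0.121 and 0.048 in overexpressing replicates 1 and 3, and 0 and 0.0571 in control replicates 6 and 8. No ligand with an identifier was above the floor of 3 counts in any library, and the listed ligands without an identifier were not measured. The part of interferons in the values of PARP14, PARP12, PARP9 and DTX3L was not tested.

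Of 14 genes of interferon signalling 12 were tested, and 5 were called higher and 0 lower, with a median of 0.56 (0.50 to 0.86 when each library was left out). Of all tested genes 8.61% were called higher and 10.6% lower. IRF1, the overexpressed gene, was at 6.46 (SE 0.21, edgeR adjusted p = 3.65e-05) and is among the 5. The others were the kinase JAK1 (1.95, edgeR adjusted p = 0.000917), the receptor chain IFNAR1 (1.02, edgeR adjusted p = 0.0173) and the feedback inhibitors SOCS1 (1.25, edgeR adjusted p = 0.00247) and USP18 (1.29, edgeR adjusted p = 0.00488). IFNAR1 was at 0.85 without overexpressing replicate 1 (edgeR adjusted p = 0.155) and at 0.98 without control replicate 8 (edgeR adjusted p = 0.0287), and was then not called. STAT2 was at −0.06, with 38.8% of its exon bases shared with PAN2 and 10.6% with IL23A, and IRF9 was not tested at 0, 9, 1 and 3 counts in replicates 1, 3, 6 and 8, with 85.2% of its exon bases shared with REC8. At an unadjusted p under 0.05 in edgeR, 8 genes were higher and 0 lower, and DESeq2 and limma-voom each called 5 higher and 0 lower. With glmTreat 2 were called higher, and SOCS1 (adjusted p = 0.228), USP18 (adjusted p = 0.25) and IFNAR1 (adjusted p = 1) were not.

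Interferon-linked PARP genes are also expressed in blood cells and fibroblasts, and markers of both were listed. Of 10 leukocyte markers found, 5 were tested, 0 were called higher and 1 lower, with a median of −0.74 and the same 0 and 1 at an unadjusted p under 0.05 in edgeR and in the calls of DESeq2 and limma-voom. The median was −0.42 without overexpressing replicate 3 and −0.42 without control replicate 6. PTPRC had 1 count, in control replicate 8, and CD3E and LYZ were at 0 in all 4 libraries. The summed CPM of the list was 10.02 and 10.4 in overexpressing replicates 1 and 3 against 34.2 and 24.7 in control replicates 6 and 8, and the gene called lower was IKZF1 (−4.18). Per length CD68 was the most abundant of the list in each library, with 148 and 135 counts in overexpressing replicates 1 and 3, and 126 and 100 in control replicates 6 and 8, and 7.23% of its exon bases are shared with EIF4A1. CD68 was at −0.15 (SE 0.30, edgeR adjusted p = 0.752), and at 0.12 without control replicate 6. Some markers of the list were thus counted in all 4 libraries whereas PTPRC, CD3E and LYZ were at or near 0, and their part in the values of PARP14, PARP12, PARP9 and DTX3L was not tested.

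Of 11 fibroblast markers 10 had an identifier and 4 were tested, of which 1 was called higher and 3 lower, with a median of −2.80. The median was −1.89 without overexpressing replicate 1 and −1.57 without control replicate 6, when 5 were tested each time. It was −2.60 without overexpressing replicate 3, with 4 tested, and −2.19 without control replicate 8, with 6 tested. In DESeq2 and with no filter it was −1.66. Their summed CPM was 144 and 88.0 in overexpressing replicates 1 and 3, and 204 and 105 in control replicates 6 and 8. Per length COL1A2 was the most abundant of the list in the overexpressing libraries and PDGFRB in the controls. COL1A2 was higher at 1.08 (edgeR adjusted p = 0.0301), but was not called by glmTreat (adjusted p = 0.863), without overexpressing replicate 1 (0.65, edgeR adjusted p = 0.184) or without control replicate 8 (0.78, edgeR adjusted p = 0.0438). COL1A1 (−1.97) and PDGFRB (−5.49, from −6.32 to −4.79 when each library was left out) were lower. DCN, with 3 and 1 counts in overexpressing replicates 1 and 3 and 19 in each control, was also lower, at a ratio of 0.0764 of the pooled rates (exact 95% interval 0.0198 to 0.212, counting error only). Its fitted log2 fold change was −3.63. It was −4.38 without overexpressing replicate 1 and −3.18 without replicate 3, where DCN missed the threshold. LUM, COL6A3 and COL5A1 had no more than 3 counts in any library. The part of these cells in the values of the members was not tested.

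Of 11 pluripotent cell markers 6 had an identifier and 5 were tested, of which 0 were called higher and 3 lower, with a median of −1.34 and the same 0 and 3 at an unadjusted p under 0.05 in edgeR and in the calls of DESeq2 and limma-voom. The median was −0.71 without control replicate 6, −0.64 without control replicate 8 and −0.65 in DESeq2, when 6 were tested each time. ESRRB, with 31 and 37 counts in overexpressing replicates 1 and 3 and 502 and 402 in control replicates 6 and 8, LIN28A (−1.34) and CDH1 (−2.25) were lower. LIN28A, the most abundant of the list per length in each library, was not called by glmTreat (adjusted p = 0.0951). CDH1 was at −1.66 without overexpressing replicate 1 and at −3.21 without replicate 3. DNMT3B was at 0.27 and EPCAM at 0.21, and neither passed. The summed CPM was 1233 and 1277 in overexpressing replicates 1 and 3, and 1479 and 1641 in control replicates 6 and 8, and no marker with an identifier was at 0. The part of the 3 called markers in the values of PARP14, PARP12, PARP9 and DTX3L was not tested.

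Depth and the share of mitochondrial counts also differed between the groups. Mitochondrial genes took 8.62% and 7.57% of the counts in overexpressing replicates 1 and 3, and 6.29% and 6.68% in control replicates 6 and 8. PARP14, PARP12, PARP9 and DTX3L were all called higher when mitochondrial genes were left out together with the 10 most counted genes, with DTX3L at 2.39 (edgeR adjusted p = 0.00934). Leaving out these rows changes little but the scaling, and the median of all genes moved from −0.002 to 0.002. The part of depth and of the mitochondrial share in the values of the members was not tested.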

How the data were processed

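RNA was sequenced from 4 libraries, 2 of IRF-1 overexpressing and 2 of control DOX-hLIF-2i piPSCs, and the 4 ChIP-Seq and input samples were not analysed here. The authors deposited whole-number read counts per Ensembl gene of Sscrofa11.1, not normalized, with the deposited exon Length of each gene in bases. The submitters' processing notes name HISAT2 2.0.4 and featureCounts 1.6.4. The strand setting, the annotation release and the treatment of reads with several map positions are not given in the sources used here. Exon bases shared between genes are therefore given for named genes where they reach 5%.

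Symbols were taken from a table of Ensembl gene names, which matched 14692 of 24358 identifiers. The counts were fitted in edgeR 4.0.16 (R 4.3.3) with TMM factors, filterByExpr by group, the quasi-likelihood F test and Benjamini-Hochberg adjustment over 13250 genes, after the procedure had been tested on simulated data. The SE is the log2 fold change divided by the square root of F, and its 95% interval uses the t distribution with the test's degrees of freedom. CPM use TMM-scaled library sizes, FPKM are these CPM per kilobase of exon, and a count of 3 was taken as the floor. Intervals and floors of counts cover counting error only. Counts of same-group replicates differed beyond sampling noise, with a chi-square of 17.9 (overexpressing) and 31.3 (control) for each degree of freedom, and each library was kept as a sample.

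The genes named were the members, IRF1, genes of fixed lists, symbols within 200 kb of the chromosome 13 genes, nearest tested neighbours and the 3 genes most like PARP9 and PARP14. PLEC was added after its values were seen. Single values of some listed genes are not reported here. The members and lists were chosen with earlier results of these data known. Promoter motifs, which the plan named, were not analysed here. Alternatives were other normalizations, filters, DESeq2 1.42.0, limma-voom (limma 3.58.1), glmTreat, no minimum fold, removal of mitochondrial and highest genes, and each library left out in turn. Exons, positions and figures were handled in Python 3.11.15 with pandas 2.3.3, numpy 2.4.6, scipy 1.17.1 and matplotlib 3.10.9.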

Additional observations from a re-analysis of the deposited data

How the results depend on the processing

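PARP14, PARP12 and PARP9 were called higher under all 14 alternatives, with log2 fold changes of 8.44 to 12.93, 5.39 to 6.75 and 3.21 to 4.47. The highest value of PARP14 came without control replicate 6, which held its only 2 control counts. DTX3L was not called by glmTreat, which tests against the minimum fold (2.38, adjusted p = 0.0516), and leaving out each library in turn gave 1.96 to 2.71, with the call lost without overexpressing replicate 1. The members called higher numbered 3 or 4 and those called lower 0 under every alternative. PARP11 (−0.68 to −0.28) and PARP2 (−0.51 to −0.08) were not called under any alternative. PARP1 ranged from −0.12 to 0.095 when each library was left out in turn, with a changed sign at 0.095 without overexpressing replicate 1 and at 0.063 without control replicate 8. Other values near 0 also turned, namely HPF1 (−0.047 to 0.14 when each library was left out, and below 0 at −0.047 without overexpressing replicate 3 and −0.013 without control replicate 6), MIX23 (−0.056 to 0.18) and ZC3HAV1 (−0.015 to 0.20), the latter both below 0 without control replicate 6, and CD68, which ranged from −0.37 to 0.12 and was above 0 without control replicate 6. The cause was not tested.

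Over all genes, 1141 were called higher and 1410 lower. With glmTreat the counts were 611 and 603, as its test is stricter by construction, and with no minimum fold 1842 were higher and 2054 lower. Leaving out each library gave 756 to 1156 higher and 874 to 1548 lower, the lowest of both without overexpressing replicate 1. A group then holds 1 library, which is assumed to vary like the other group. The scalings moved the median of all genes by less than 0.01. No paired analysis was made, because the sources used here do not say whether libraries of the groups are paired. Depth limits the members with few control reads, where 1 count is 0.064 CPM in replicate 6 and 0.0571 CPM in replicate 8. The fold of PARP14 is therefore imprecise, and its counting interval leaves out the spread between replicates.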

Other observations

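The supply and use of NAD, from which PARP enzymes take ADP-ribose, was described from 14 listed genes, of which 12 were tested, 3 were called higher and 0 lower, with a median log2 fold change of 0.29 (0.27 to 0.47 when each library was left out) beside 0.00 for all tested genes. Of all tested genes 8.61% were called higher and 10.6% lower. The NAD synthesis enzyme NMNAT3 had 63 and 29 counts in overexpressing replicates 1 and 3 and 3 and 5 in control replicates 6 and 8 (log2 fold change 3.0, SE 0.60, edgeR adjusted p = 0.00888). CD38, which breaks down NAD, had 763 and 326 counts against 158 and 100 (1.56, SE 0.39, edgeR adjusted p = 0.0203), and NMNAT2 was at 1.05 (edgeR adjusted p = 0.00479). Without overexpressing replicate 1, 0 of the list were called, with NMNAT3 at 2.51 (edgeR adjusted p = 0.0894), CD38 at 1.00 (edgeR adjusted p = 0.141) and NMNAT2 at 0.92, under the minimum fold. NMNAT2 was also under it without control replicate 6, at 0.90. At an unadjusted p under 0.05 in edgeR 5 genes were higher and 0 lower, and DESeq2 and limma-voom each called 3 higher and 0 lower. With glmTreat 1 gene was called, and CD38 (adjusted p = 0.223) and NMNAT2 (adjusted p = 0.853) were not. NAMPT, the rate-limiting enzyme of NAD salvage, was at 0.16 (SE 0.14, edgeR adjusted p = 0.437), and NADSYN1 was at 0.93 (edgeR adjusted p = 0.00705), just under the minimum fold. Without overexpressing replicate 3 NADSYN1 was called, at 1.08 (edgeR adjusted p = 0.0099), and 4 genes of the list were then higher.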
